A study of Mus musculus with 37 samples.

Results

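The genes described here are 10 genes of the NRF2 antioxidant response, taken by symbol from a table of 56748 mouse genes: Nfe2l2, Hmox1, Nqo1, Gclc, Gclm, Txnrd1, Srxn1, Slc7a11, Gsr and Prdx1. Each symbol matched 1 row of the table, and all 10 rows are protein coding genes. The members were chosen by name, although with earlier results of these data known. NRF2, the product of Nfe2l2, is a transcription factor that is held in the cytoplasm and marked for degradation by KEAP1. Oxidants and electrophiles release it from KEAP1, and it then enters the nucleus, pairs with small MAF proteins and binds antioxidant response elements near its target genes. This control acts on the protein, so the level of Nfe2l2 mRNA does not measure NRF2 activity. In the heart the pathway is best known from oxygen deprivation followed by reperfusion, where its targets rebuild glutathione, recycle thioredoxin and peroxiredoxins, reduce quinones and break down heme.

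RNA of the left ventricle was sequenced in 37 libraries, 1 from each C57BL/6J mouse, in 9 groups. The mice were of both sexes and 8 to 10 weeks old, and all of them received isoflurane. Naïve mice (n = 5) had anaesthesia only and were neither intubated nor injected. Their hearts were taken after baseline echocardiography, and this group served for all times. Adr mice, called sham in the sample labels, were intubated, injected with saline into the left ventricle and then given 500 µL of adrenaline at 15 µg/mL. Arrest mice were intubated, injected in the same place with 40 µL of 0.5 M potassium chloride, kept in asystole for 8 min and resuscitated with adrenaline and chest compressions. Hearts of both arms were taken at 4 times, on days 0.5, 1, 3 and 7, with 4 libraries in each arm at each time. Adr mice therefore share the adrenaline, the intubation and an intracardiac injection with Arrest mice, and Naïve mice share only the anaesthetic.

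Values are in FPKM, the fragments counted on a gene per kilobase of its length and per M of library size (M, 1e6). Levels of different genes can therefore be compared with one another. The library size is not the number of fragments counted on genes. A median-ratio factor between libraries was 1.013 in each of them, so the values had been scaled to one another before deposition. Libraries held 13.2 to 30.2 M fragments counted on genes (median 14.9). Tests were made with limma on log2(FPKM + 1) over 16530 genes, with Benjamini-Hochberg adjustment inside each comparison and a threshold of 0.05, and a log2 difference below is a difference on that scale, which understates changes of low genes. Of the 10 genes, 9 passed the filter of at least 0.5 FPKM in at least 4 libraries, and Slc7a11 did not. All 11 cardiomyocyte markers were present, with a summed level of 13234 to 20338 FPKM in the Naïve group and in the Arrest groups at 0.5 and 1 day. One library stood apart from all others, the Adr heart labelled replicate 3 at 3 days, with a cardiomyocyte sum of 4303 FPKM, a macrophage marker sum of 1108 FPKM and 9.36% of its fragments on mitochondrial genes. It was kept, and calls of the 9 genes that change without it are given in both forms. All 9 groups share 1 estimate of the spread in the model, so this library also bears on comparisons that do not contain it. Other hearts at 3 days differed as well. Cardiomyocyte and macrophage sums were 10400 and 531 FPKM in Adr replicate 4, and 10226 and 595 FPKM in Arrest replicate 1. They were 11585 and 608 FPKM in Arrest replicate 4. The remaining hearts of that time had 17062 to 17865 and 281 to 430 FPKM. Naïve hearts had 15321 to 17914 and 227 to 374 FPKM. The part of these shifts in the values at 3 days was not tested. In bulk tissue, fewer cells of a type and less RNA per cell cannot be told apart.

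Part of the sequence before the start site is shown for the 5 members whose promoter window held a match to an antioxidant response element, since this is the element through which NRF2 is known to act. Windows of 250 bases before to 50 bases after the start were taken from RefSeq on GRCm38.p6, in which 7 of the 10 members had at least 1 window (9 windows in all). Hmox1, Gclc and Gsr had no entry. The core TGACNNNGC was searched on both strands. A second motif, TGANTCA, bound by AP-1 and by BACH proteins with small MAFs, was added after the sequences had been seen, and it can overlap the first. Capitals mark the matches, in the orientation of the gene, so that a match on the opposite strand appears as the reverse complement of the motif. The stretches are at chr2:75704871-75704913 on the minus strand for Nfe2l2, chr2:152105398-152105509 on the plus strand for Srxn1, chr3:122245399-122245455 on the plus strand for Gclm, chr4:116685349-116685498 on the plus strand for Prdx1, chr10:82859090-82859146 on the plus strand for Txnrd1.
Nfe2l2: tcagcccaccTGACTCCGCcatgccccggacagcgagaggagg
Srxn1: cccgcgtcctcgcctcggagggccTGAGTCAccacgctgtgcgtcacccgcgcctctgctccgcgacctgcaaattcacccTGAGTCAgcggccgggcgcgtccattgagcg
Gclm: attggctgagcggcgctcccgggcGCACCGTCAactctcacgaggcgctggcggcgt
Prdx1: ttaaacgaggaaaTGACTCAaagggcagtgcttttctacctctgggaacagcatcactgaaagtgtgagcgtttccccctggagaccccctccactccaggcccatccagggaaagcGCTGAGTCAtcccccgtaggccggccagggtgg
Txnrd1: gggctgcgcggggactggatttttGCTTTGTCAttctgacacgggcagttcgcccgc
The core TGACNNNGC was present in 5 of the 9 windows of the members, against 12.4% of 32851 windows of the same length. Counted by gene, it was in at least 1 window of 5 of the 7 members and of 13.99% of 27025 genes, and Txnrd1 had 3 windows, of which 1 held it. Its distance from the start site was 240 bases for Nfe2l2, 134 for Gclm, 133 for Prdx1 and 92 for Txnrd1. In Srxn1 the match to TGACNNNGC lay after the start site and is not printed, and the printed capitals are matches to TGANTCA at 102 and 45 bases before it. Prdx1 also held 2 matches to TGANTCA, at 237 and 131 bases, the nearer of which overlapped its TGACNNNGC match. TGANTCA was found in 7.81% of the same windows. The windows of Nqo1 and Slc7a11 held neither motif in these letters. A match describes the letters in the window and does not show that a factor was bound.

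In Naïve hearts, Prdx1 was the most abundant of the 10 genes at 99.3 ± 4.89 FPKM (mean ± SD, n = 5). Nqo1 followed at 32.7 ± 7.93 FPKM and Nfe2l2 at 24.2 ± 2.33 FPKM, and their ranges overlapped. Gsr at 8.80 ± 2.13, Txnrd1 at 8.33 ± 1.57, Srxn1 at 7.17 ± 2.16 and Hmox1 at 6.96 ± 1.49 FPKM could not be ordered beyond their spread. Gclc had 4.54 ± 2.18 FPKM and Gclm 3.89 ± 0.612 FPKM, and Slc7a11 was listed at 0 in all 5 libraries.

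The main pattern was seen after cardiac arrest in comparisons with Naïve hearts. Against Adr hearts of the same time none of the 9 tested genes passed, where at most 0.00605% of all genes passed. At 1 day, 5 of the 9 tested genes were higher in Arrest than in Naïve hearts, namely Srxn1, Gclm, Nqo1, Txnrd1 and Prdx1, and none was lower. Over all genes tested, 7.11% passed the threshold in this comparison and 3.88% did so with a higher level in Arrest. The median log2 difference was 0.69 over the 9 members and 0.03 over all genes. With the number that stands in the sample descriptions as a covariate, the count at 1 day was 0 and the adjusted p-values of the 5 genes ran from 0.12 for Srxn1 to 0.43 for Nqo1. That number did not overlap between Naïve (116 to 127) and Arrest hearts at 1 day (70 to 95). Under quantile normalization, or with scaling by the fragments counted on genes, 3 of the 9 passed. At 0.5 days 1 of the 9 genes passed, Srxn1, where 3.21% of all genes passed and 1.75% were higher, with a median over the members of 0.50. Srxn1 and Nqo1 were lower again at 7 days than at 1 day, and no member differed from Naïve at 3 or 7 days. The transcript of NRF2 itself did not pass in any comparison.

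**Figure D1:**
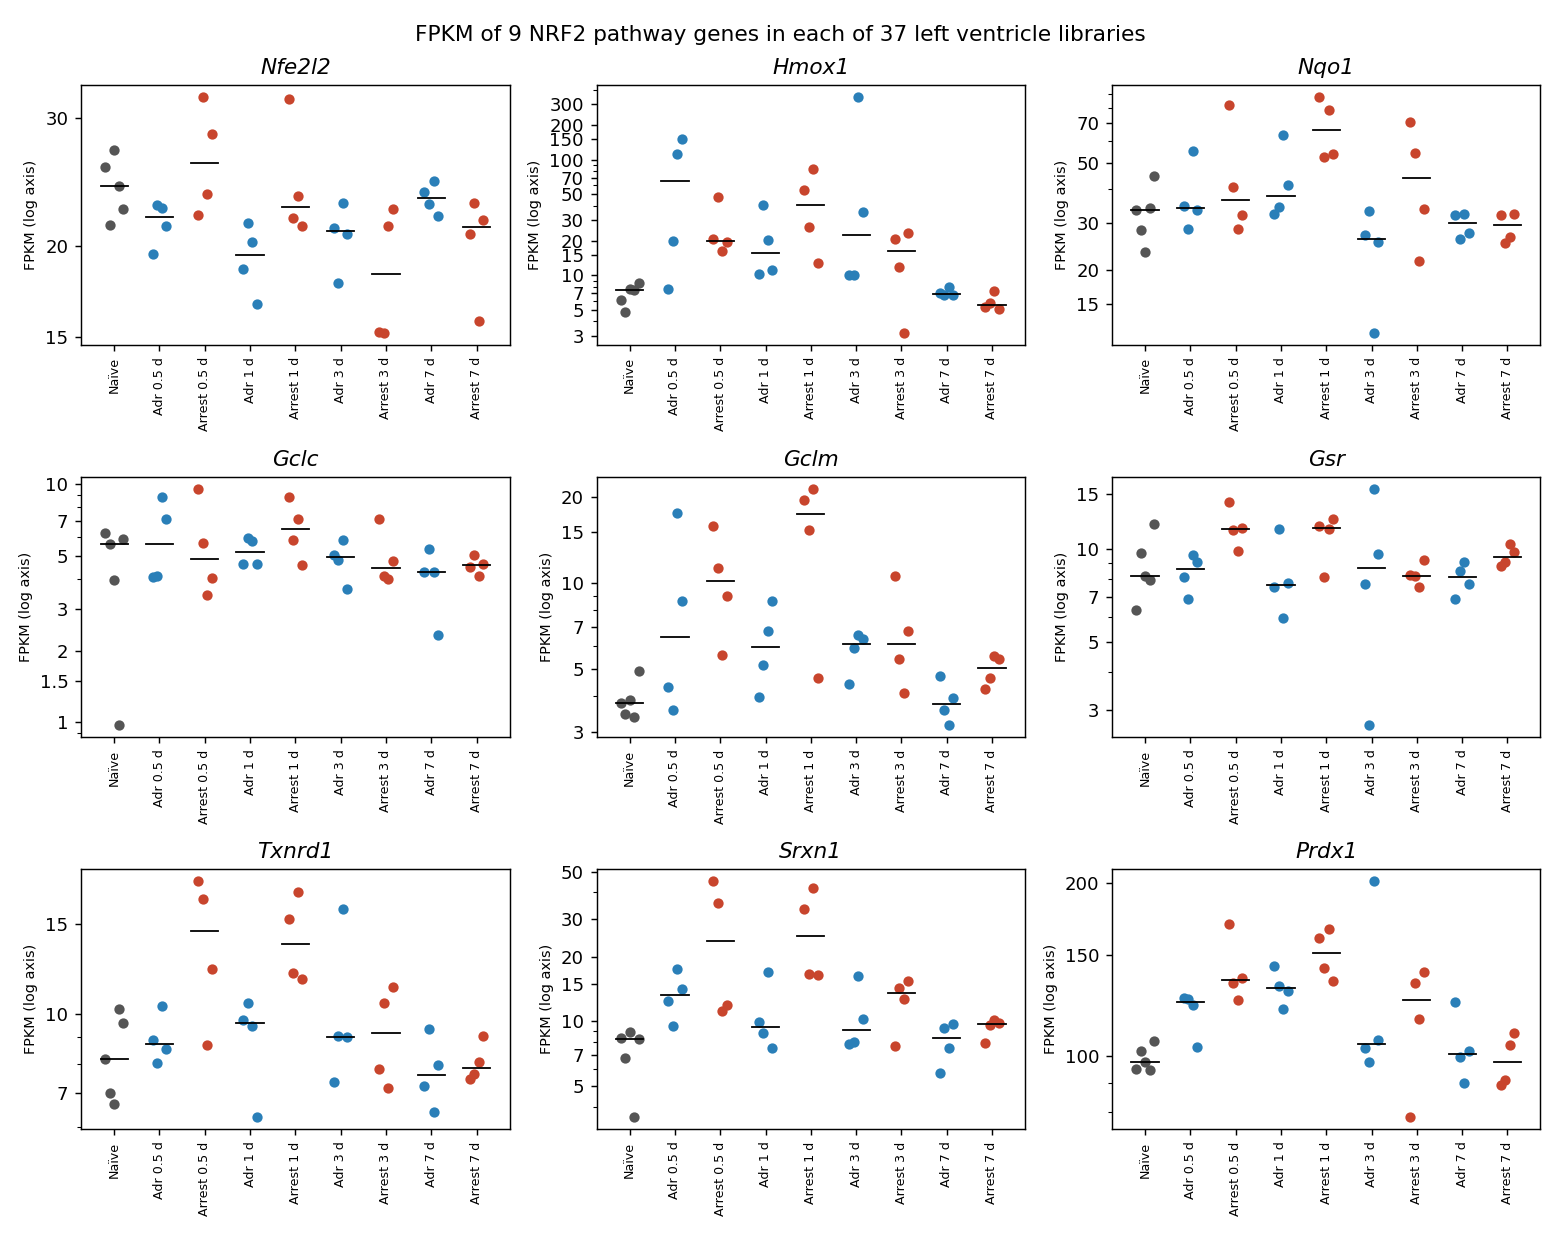
FPKM of 9 genes (log axis) in each of the 37 libraries, with 1 point for each library, grey for Naïve, blue for Adr and red for Arrest, ordered by time, and a bar at each group's median. For Srxn1, Nqo1, Txnrd1 and Prdx1 the 4 Arrest libraries at 1 day lie above all 5 Naïve libraries.

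The regulator was described first. Nfe2l2 was at 25.7, 21.4, 27.1, 24.2 and 22.5 FPKM in the 5 Naïve hearts, and at 31.9, 21.9, 23.5 and 21.3 FPKM in the 4 Arrest hearts at 1 day. The ranges overlapped, and the largest value of the Arrest group belonged to replicate 1. The log2 difference was 0.01 (SE 0.13, limma adjusted p = 0.98), with a 95% interval from -0.26 to 0.28. At 3 days Arrest hearts were at 15.2, 15.2, 21.3 and 22.5 FPKM, with 3 of the 4 below the lowest Naïve heart. This difference of -0.38 on the log2 scale had an adjusted p of 0.18.

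Glutathione synthesis starts with glutamate-cysteine ligase, whose catalytic subunit is encoded by Gclc and whose modifier subunit, which raises the enzyme's affinity for glutamate, is encoded by Gclm. Gclm was at 3.78, 3.46, 3.88, 3.39 and 4.92 FPKM in Naïve hearts and at 19.4, 15.3, 21.3 and 4.63 FPKM in Arrest hearts at 1 day. Replicates 1 to 3 lay above all Naïve hearts and replicate 4 lay among them. The mean was 3.91 times the Naïve mean, and the log2 difference was 1.56 (SE 0.33, limma adjusted p = 0.0048). With the description number as a covariate it was 1.31 (adjusted p = 0.24). At 0.5 days the Arrest hearts were at 15.9, 11.2, 5.57 and 9.02 FPKM, all above the Naïve range. That difference of 1.15 missed the threshold (SE 0.33, adjusted p = 0.0502) and passed it without the Adr library that stood apart (adjusted p = 0.039) or without Arrest replicate 3 (0.030).

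Gclc, the catalytic partner, had values of 8.86, 5.80, 7.11 and 4.60 FPKM in Arrest hearts at 1 day. Naïve hearts were at 6.26, 5.62, 3.96, 0.976 and 5.90 FPKM, where the low value of replicate 4 rested on 50 fragments against 196 to 369 in the others. The groups overlapped, and the log2 difference was 0.56 (SE 0.28, adjusted p = 0.25). Without Naïve replicate 4 this difference was 0.22. The ligase subunits thus stood at different positions relative to the threshold at 1 day, and the difference between them was not tested.

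Slc7a11 encodes the cystine carrier of the xCT exchanger, which brings in the cysteine needed for glutathione. It was above 0 in 12 of 37 libraries and never above 0.212 FPKM, or 50 fragments, in Arrest replicate 2 at 0.5 days. At 1 day it was listed at 0 in all 4 Arrest hearts, and the limit that a count of 0 allows, 3 fragments per library, lay between 0.00663 and 0.0167 FPKM over the libraries. Gsr, glutathione reductase, regenerates glutathione with NADPH. It had 11.8, 8.10, 11.6 and 12.5 FPKM in Arrest hearts at 1 day, within or just above the Naïve range of 6.33 to 11.98 FPKM, and its log2 difference was 0.30 (SE 0.24, adjusted p = 0.50).

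Srxn1, Txnrd1 and Prdx1 act in the thioredoxin and peroxiredoxin branch. Srxn1, sulfiredoxin, repairs peroxiredoxins that peroxide has overoxidised. It was at 8.36, 6.76, 8.88, 3.57 and 8.28 FPKM in Naïve hearts. Arrest hearts were at 45.2, 35.6, 11.2 and 11.9 FPKM at 0.5 days and at 33.4, 16.6, 41.9 and 16.4 FPKM at 1 day. Every Arrest library at these times lay above every Naïve library, with a pair of high and a pair of lower values at each time. The log2 differences were 1.52 at 0.5 days (SE 0.33, limma adjusted p = 0.011) and 1.72 at 1 day (SE 0.33, adjusted p = 0.0023), and the means were 3.62 and 3.78 times the Naïve mean. Leaving out Arrest replicate 1 or 2 at 0.5 days raised the adjusted p there to at most 0.071, with a log2 difference of at least 1.18. With the description number as a covariate the difference at 1 day was 1.67 (adjusted p = 0.12).

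Txnrd1, the cytosolic thioredoxin reductase, was at 8.15, 6.99, 6.67, 10.2 and 9.6 FPKM in Naïve hearts and at 15.3, 12.05, 17.3 and 11.7 FPKM in Arrest hearts at 1 day. The groups did not overlap, and the log2 difference was 0.69 (SE 0.19, limma adjusted p = 0.023). At 0.5 days the Arrest values were 18.2, 16.8, 8.68 and 12.2 FPKM, of which replicate 3 lay inside the Naïve range. The difference of 0.65 there had an adjusted p of 0.053, and 0.022 without the Adr library that stood apart. At 1 day the call was lost without Arrest replicate 1 or 3 or Naïve replicate 2 or 3, with an adjusted p of at most 0.11 and a difference of at least 0.60. It was also lost with scaling by counted fragments (adjusted p = 0.063) and with the description number as a covariate (0.37).

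Prdx1, the peroxiredoxin that reduces peroxide in the cytosol, had the smallest difference of the genes that passed at 1 day, on a high and even level. Naïve hearts held 95.2, 102, 97.8, 94.8 and 106 FPKM. Arrest hearts held 161, 142, 167 and 135 FPKM at 1 day and 170.0, 134, 125 and 137 FPKM at 0.5 days. All Arrest libraries at both times were above the Naïve range. The log2 differences were 0.60 at 1 day (SE 0.16, limma adjusted p = 0.020) and 0.50 at 0.5 days (SE 0.16, adjusted p = 0.079). Without the Adr library that stood apart the value at 0.5 days passed, at the same difference (adjusted p = 0.015). Under quantile normalization the value at 1 day was 0.34, with an adjusted p of 0.31, and the call was also lost with scaling by counted fragments (0.081) and with the description number as a covariate (0.27). Without Arrest replicate 1 or 3 its adjusted p was at most 0.08, at a difference of at least 0.55.

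Nqo1 encodes the quinone reductase that is the textbook NRF2 target. It was at 33.5, 28.2, 23.3, 34.1 and 44.6 FPKM in Naïve hearts and at 87.8, 52.3, 78.3 and 53.7 FPKM in Arrest hearts at 1 day, with no overlap. The mean was 2.08 times the Naïve mean, and the log2 difference was 1.03 (SE 0.30, limma adjusted p = 0.032). At 0.5 days a single Arrest heart, replicate 1 at 81.9 FPKM, was far above the rest, which were at 40.7, 28.5 and 32.1 FPKM. The log2 difference of 0.38 at that time did not pass (adjusted p = 0.55), and it was 0.06 without replicate 1. At 1 day the call was lost without Arrest replicate 1 or 3 or Naïve replicate 1, 2 or 3, with an adjusted p of at most 0.12 and a difference of at least 0.90. It was also lost under quantile normalization (adjusted p = 0.076), with no filter on low values (0.066), with the gene length trend removed (0.084) and with the description number as a covariate (0.43). In Arrest hearts 4 of 9 members were above every Naïve library at 0.5 days (Hmox1, Gclm, Srxn1 and Prdx1; 4.49% of all genes) and 5 of 9 at 1 day (Hmox1, Nqo1, Txnrd1, Srxn1 and Prdx1; 5.71% of all genes).

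Hmox1 encodes heme oxygenase 1, which opens the heme ring to give biliverdin, iron and carbon monoxide, and is also abundant in macrophages that take up red cells. It had the largest fitted difference of the 9 genes at 1 day and the widest spread. Naïve hearts were at 6.17, 4.82, 7.69, 7.48 and 8.66 FPKM and Arrest hearts at 54.8, 26.3, 83.3 and 12.9 FPKM at 1 day. The groups did not overlap, but the SE of the log2 difference of 2.22 was 0.75 and the adjusted p was 0.067. That SE rests on the spread within all 9 groups of the model, the Adr groups included, and not on these 2 groups alone. Without the Adr library that stood apart the adjusted p was 0.018, at the same difference, and without Arrest replicate 4 it was 0.037, at 2.68. At 0.5 days Arrest hearts were at 20.4, 47.8, 16.1 and 19.4 FPKM, a log2 difference of 1.65 (SE 0.75, adjusted p = 0.24).

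Hmox1 also varied widely in Adr hearts. At 0.5 days they were at 7.67, 19.8, 111 and 150.4 FPKM, so that 1 heart was within the Naïve range and 2 were more than 10 times the Naïve mean of 6.96 FPKM. At 1 day they were at 10.3, 40.6, 20.2 and 11.2 FPKM, and at 3 days at 10.05, 10.1, 349 and 34.97 FPKM. The log2 differences from Naïve were 2.41, 1.25 and 2.17 at these times, with adjusted p-values of 0.14, 0.45 and 0.21. Without the Adr library that stood apart, in which the 349 FPKM were measured, the value at 0.5 days passed (adjusted p = 0.040), and the difference at 3 days fell to 1.06.

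**Figure D2:**
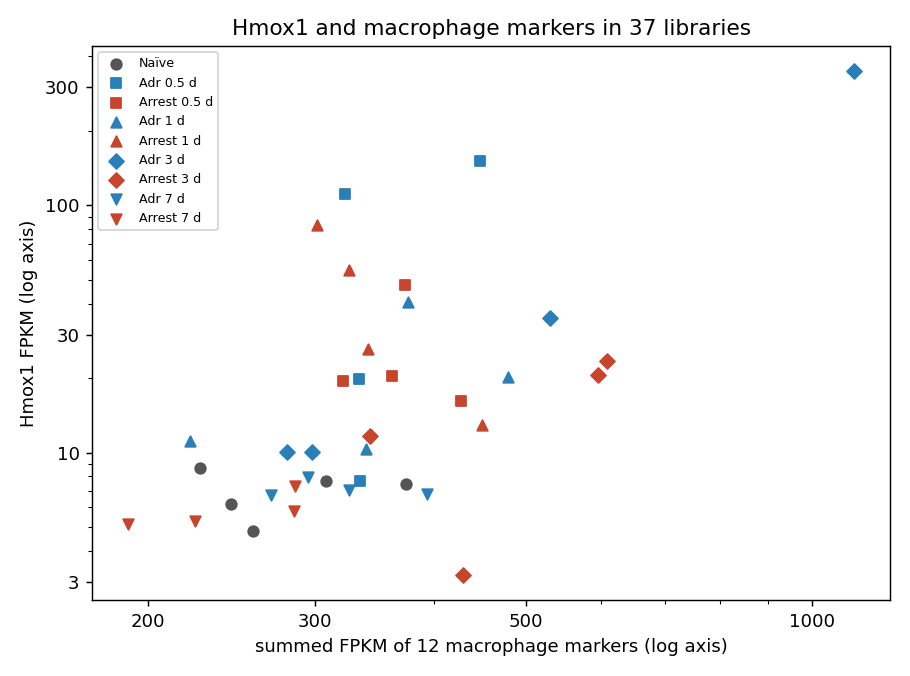
Hmox1 (FPKM, log axis) against the summed FPKM of 12 macrophage markers (log axis) in the 37 libraries, coloured by arm and shaped by time. The Adr library with 349 FPKM of Hmox1 also has the highest marker sum, 1108 FPKM, while the 2 next highest Hmox1 values, 150.4 and 111 FPKM in Adr hearts at 0.5 days, stand at marker sums of 447 and 322 FPKM.

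Macrophage markers were compared because these cells carry Hmox1. All 12 were detected, and their sum was 227 to 374 FPKM in Naïve hearts, 321 to 427 FPKM in Arrest hearts at 0.5 days and 301 to 450 FPKM at 1 day. At 1 day the Arrest heart with the highest Hmox1, 83.3 FPKM, had the lowest sum of its group, 301 FPKM, and the one with the lowest Hmox1, 12.9 FPKM, had the highest, 450 FPKM. Endothelial markers summed to 314 to 381 FPKM in Naïve hearts and to 652, 538, 610 and 274 FPKM in Arrest replicates 1 to 4 at 1 day, so that replicate 4, the lowest for Gclm and Hmox1, was also the lowest here. In Adr hearts at 0.5 days they summed to 371, 329, 566 and 501 FPKM, with replicates 3 and 4 high, as they were for Hmox1 and Gclm. Neutrophil markers were low, with a sum of 0 to 11.9 FPKM in Naïve hearts, 5.82 to 49.3 FPKM in Arrest hearts at 0.5 days and 9.68 to 30.4 FPKM at 1 day, and Ly6g had a median of 0 in all of these groups. In Arrest hearts at 1 day the sums were 30.4, 9.68, 27.1 and 10.6 FPKM, with replicates 1 and 3 high, as they were for Srxn1. At 0.5 days the neutrophil sums were 21.3, 49.3, 5.82 and 24.2 FPKM in Arrest replicates 1 to 4. Replicate 4 was there above replicate 1, while Srxn1 was at 45.2 FPKM in replicate 1 and 11.9 FPKM in replicate 4. Endothelial sums in the same hearts were 392, 634, 351 and 350 FPKM. Of 13 neutrophil markers, 7 were above 0 in at least 1 Naïve library and 11 and 10 in the Arrest groups. Fibroblast markers summed to 758 to 915 FPKM in Naïve hearts and to 976 to 1178 FPKM in Arrest hearts at 1 day, without overlap. In Adr hearts at 1 day they summed to 953 to 1585 FPKM, also above the Naïve range. In Arrest hearts at 0.5 days the fibroblast sum was 729 to 916 FPKM. The part of these cells in the differences above was not tested.

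**Figure D3:**
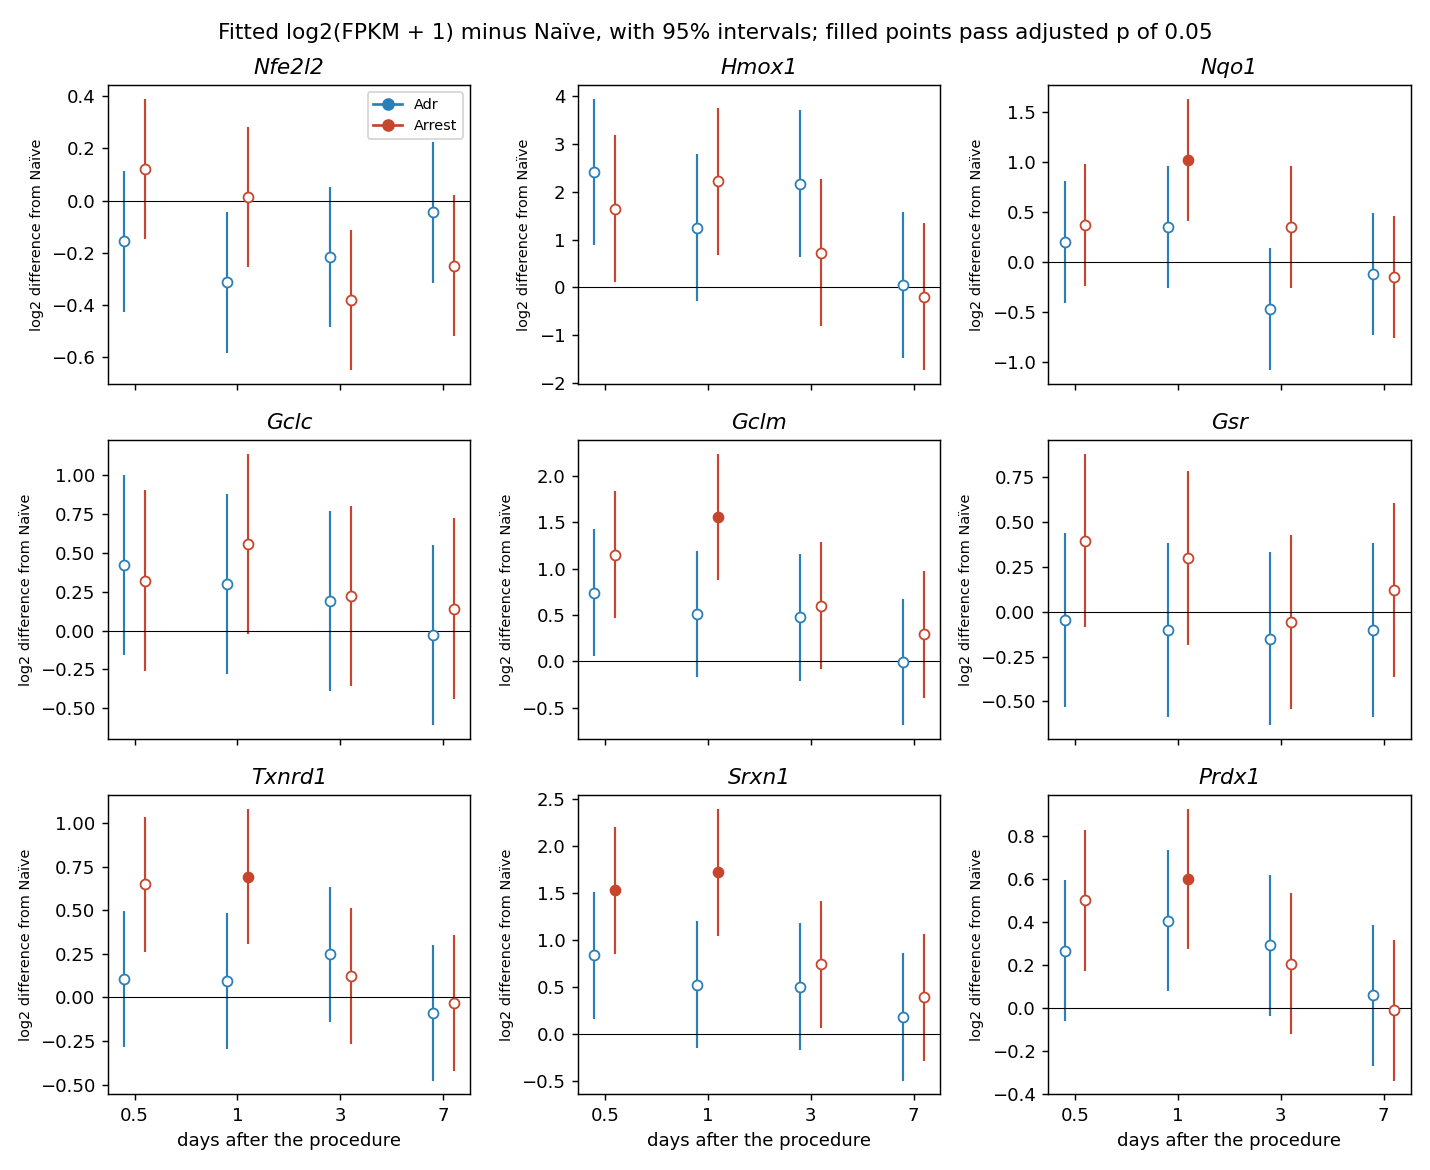
Fitted difference from Naïve in log2(FPKM + 1) for 9 genes against time in days, blue for Adr and red for Arrest, with 95% intervals and filled points where the adjusted p was at most 0.05. The 6 filled points are all of Arrest hearts, 1 at 0.5 days (Srxn1) and 5 at 1 day, and the intervals of the arms overlap for every gene and time.

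Adrenaline with a sham injection was compared, at each of the 4 times, with the same Naïve group, which had no times of its own. In order of time, limma called 0 of the 9 genes in each of the 4 comparisons, where 0.188%, 0.69%, 0% and 0% of all genes passed. At an unadjusted p of 0.05, 3, 2, 1 and 0 of the 9 genes passed (14%, 14.7%, 13.9% and 6.15% of all genes), and limma-voom on the recovered fragments called none of them after adjustment. The 2 at 1 day were Prdx1, which was higher than in Naïve hearts, and Nfe2l2, which was lower. Every Adr library lay above every Naïve library for Srxn1 at 0.5 days, for Hmox1 and Prdx1 at 1 day and for Hmox1 at 3 days, or 1, 2, 1 and 0 of 9 genes over the 4 times, against 3.36%, 2.51%, 1.29% and 0.938% of all genes. Srxn1 was at 12.4, 9.47, 17.5 and 14.1 FPKM in Adr hearts at 0.5 days (log2 difference 0.84, adjusted p = 0.24). Gclm was at 4.33, 3.59, 17.5 and 8.63 FPKM in them, with replicates 3 and 4 above the Naïve range (0.74, adjusted p = 0.31, and 0.35 without replicate 3). Prdx1 was at 144, 133, 121 and 130.1 FPKM in Adr hearts at 1 day (0.41, adjusted p = 0.23).

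Arrest and Adr hearts of the same time were compared directly, which sets the arrest with resuscitation against the adrenaline and injection alone. None of the 9 genes passed at any of the 4 times by limma or by limma-voom, and of all genes 0%, 0%, 0% and 0.00605% passed. At an unadjusted p of 0.05, 1, 5, 1 and 0 members passed in order of time, against 3.86%, 6.59%, 5.37% and 2.52% of all genes. At 1 day all 9 fitted differences were positive. That of Srxn1 was 1.2 (95% interval 0.48 to 1.91, adjusted p = 0.47), that of Gclm 1.05 (0.33 to 1.77, adjusted p = 0.57), that of Nqo1 0.67 (0.03 to 1.32, adjusted p = 0.73), that of Txnrd1 0.60 (0.19 to 1.01, adjusted p = 0.57) and that of Nfe2l2 0.33 (0.04 to 0.61, adjusted p = 0.72). Nfe2l2 was at 18.6, 21.6, 20.3 and 16.6 FPKM in Adr hearts at 1 day. Its log2 difference from Naïve was -0.31 in them (limma adjusted p = 0.25) and 0.01 in Arrest hearts. Without Arrest replicate 1 the direct difference of Nfe2l2 was 0.20. For Prdx1 it was 0.19, with an interval from -0.15 to 0.54, and for Hmox1 0.97, from -0.65 to 2.59, or 0.57 without Arrest replicate 3. The rises against Naïve after arrest were therefore not shown to differ from those after adrenaline, and intervals of this width do not show that the arms were alike. Both arms were compared with the same 5 Naïve hearts.

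At 0.5 days the direct difference was 0.69 for Srxn1 (95% interval -0.02 to 1.4) and 0.54 for Txnrd1 (0.13 to 0.95). Hmox1 had -0.77 (-2.39 to 0.85), with the higher mean in Adr hearts. The adjusted p was 1 for all 3 genes. Leaving out 1 library moved the value of Srxn1 to between 0.35 (without Arrest replicate 1) and 0.99 (without Arrest replicate 3) and that of Hmox1 to between -1.52 (without Adr replicate 1) and -0.15 (without Adr replicate 4). At 3 days Nqo1 was at 70.9, 54.2, 21.7 and 33.9 FPKM in Arrest hearts and at 26.9, 33.2, 11.7 and 25.4 FPKM in Adr hearts, and the ranges overlapped (0.82, adjusted p = 0.89). The lowest of these, 11.7 FPKM, was in the Adr library that stood apart, and without it the difference was 0.52 (adjusted p = 0.92).

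At the later times no member passed against Naïve. At 3 days 0 of the 9 genes passed in Arrest hearts (0.139% of all genes), with 2 at an unadjusted p of 0.05 (13.7% of all genes) and none by limma-voom. Srxn1 was at 7.69, 14.3, 12.7 and 15.4 FPKM then (log2 difference 0.74, adjusted p = 0.31), Gclm had a difference of 0.60 (adjusted p = 0.43) and Hmox1 one of 0.72 (adjusted p = 0.72). On leaving out 1 library the value of Gclm was as low as 0.38 (without Arrest replicate 1) and that of Hmox1 ran from 0.42 (without replicate 4) to 1.26 (without replicate 3). At 7 days 0 of the 9 passed by limma or limma-voom (0% of all genes), 0 reached an unadjusted p of 0.05 (5.15% of all genes), and the 9 log2 differences ran from -0.25 for Nfe2l2 to 0.39 for Srxn1.

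The return was tested within the Arrest arm, 7 days against 1 day. All 9 fitted differences were negative, with a median of -0.72 against 0 over all genes, and 2 of the 9 passed, against 1.89% of all genes and 1.14% of them lower at 7 days. Srxn1 was at 7.90, 9.58, 10.2 and 9.81 FPKM at 7 days, all below its 4 values at 1 day, a log2 difference of -1.33 (SE 0.35, limma adjusted p = 0.039). Nqo1 was at 32.2, 25.2, 26.5 and 32.2 FPKM, again below all values at 1 day, with a difference of -1.17 (SE 0.32, adjusted p = 0.044). Gclm at -1.27, Txnrd1 at -0.72 and Prdx1 at -0.61 had adjusted p-values of 0.053 each, and Hmox1 at -2.42 one of 0.11. Without the Adr library that stood apart, 6 of the 9 passed, with Gclm, Txnrd1, Prdx1 and Hmox1 in addition, and without Arrest replicate 4 at 1 day 5 passed, with Gclm, Txnrd1 and Prdx1 in addition. Gclc at -0.42, Nfe2l2 at -0.26 and Gsr at -0.18 did not pass. On leaving out 1 of the 8 libraries, Srxn1 lost its call in 6 fits (all but those without Arrest replicate 2 or 4 at 1 day; adjusted p at most 0.20) and Nqo1 in 7 (all but that without replicate 4 at 1 day; adjusted p at most 0.16).

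**Figure D4:**
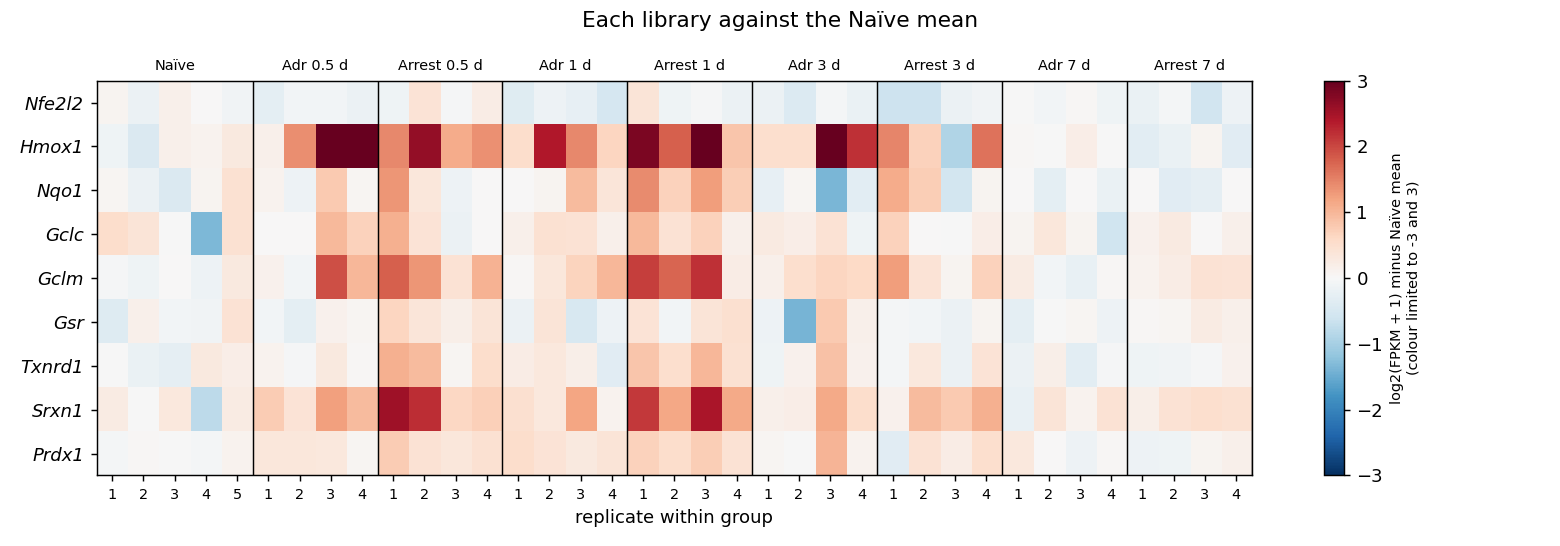
Each of the 37 libraries (columns, by group and replicate) against the Naïve mean for 9 genes (rows), as a difference in log2(FPKM + 1) with colour limited to -3 and 3. In Arrest hearts at 0.5 days replicate 1 is the darkest column for most genes and replicate 3 the palest, and at 1 day replicate 4 is the palest.

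The same libraries tended to be high or low for several of the genes. In Arrest hearts at 0.5 days replicate 1 was the highest for 7 of the 9 genes and replicate 3 the lowest for 8. At 1 day replicate 3 was the highest for 5 and replicate 4 the lowest for 7. In Adr hearts at 3 days the library that stood apart was the highest for 8 of the 9, Nqo1 being the exception, and at 0.5 days replicate 3 was the highest for 6. Marker sums differed between these libraries as well. Arrest replicate 3 at 0.5 days had the lowest neutrophil sum of its group, 5.82 FPKM against 21.3, 49.3 and 24.2 FPKM, and Arrest replicate 4 at 1 day had the lowest endothelial sum. Both of these libraries had the highest macrophage sum of their group, 427 and 450 FPKM. The part of these cells was not tested. The counts of highest and lowest libraries are descriptions over genes measured in the same libraries, and they were not made over all genes. Gene by gene, the spread was widest for Hmox1, whose highest library was 6.46 times its lowest in Arrest hearts at 1 day, and 4.61 times for Gclm, and narrowest for Prdx1 at 1.23 times.

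The wider pathway was followed through 146 genes in 6 lists, written from general knowledge and not from their values here, although with earlier results of these data known. Of 18 regulators of NRF2, 17 were tested, and 3 rose and 1 fell in Arrest hearts at 1 day, where 7.11% of all genes passed and the median over all genes was 0.03. Maff, a small MAF partner, went from 3.02 ± 1.6 FPKM in Naïve hearts to 7.52 ± 2.7 FPKM (log2 difference 1.11, SE 0.32, limma adjusted p = 0.030). Sqstm1, the autophagy receptor p62 that binds KEAP1 and is itself an NRF2 target, went from 82.9 ± 7.5 to 155 ± 43 FPKM (0.85, SE 0.22, adjusted p = 0.019). Rbx1, a subunit of the ubiquitin ligase that uses KEAP1, rose by 0.44 (adjusted p = 0.022), and Gsk3b, a kinase that marks NRF2 for degradation, fell by 0.50 on the log2 scale (adjusted p = 0.011). Keap1 and Bach1, the repressor that competes at the same elements, did not pass and are named here because of their roles, after their values had been seen. Keap1 had a log2 difference of 0.24 (adjusted p = 0.26) and Bach1 one of 0.05 (adjusted p = 0.89). At 0.5 days 1 of the 17 passed, Maff, at 1.27 (adjusted p = 0.025), where 3.21% of all genes passed.

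Of 45 genes of glutathione handling, 43 were tested. In Arrest hearts at 1 day 9 rose and 0 fell, with a median log2 difference of 0.23. Over all genes, 7.11% passed in this comparison and 3.88% were higher. The largest rise was that of Mgst1, a membrane-bound glutathione transferase, from 19.1 ± 8.9 FPKM in Naïve to 66.1 ± 12 FPKM (1.84, SE 0.33, limma adjusted p = 0.0013). Gsta3, a soluble transferase, went from 3.14 ± 0.91 to 10.1 ± 3.1 FPKM (1.41, adjusted p = 0.021). Gpx1, the cytosolic glutathione peroxidase, went from 4.45 ± 3.1 to 10.4 ± 2.3 FPKM (1.27, adjusted p = 0.026). At 0.5 days 4 of the 43 rose, where 3.21% of all genes passed and 1.75% were higher. They were led by Mgst1 at 1.41 (adjusted p = 0.018), Slc3a2 at 0.96 (adjusted p = 0.034) and Gpx4, which reduces lipid peroxides, at 0.63 (adjusted p = 0.030). Slc3a2 is the heavy chain that pairs with Slc7a11 in xCT and also with other amino acid carriers. It was at 19.8 ± 6.8 FPKM at 1 day, when no fragment of Slc7a11 was counted.

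All 23 genes of thioredoxin and peroxide removal were tested. At 1 day in Arrest hearts 4 rose and 1 fell, where 7.11% of all genes passed and 3.88% were higher. Msrb1, which reduces oxidised methionine, went from 73.0 ± 11 FPKM in Naïve to 194 ± 62 FPKM (1.35, SE 0.19, limma adjusted p = 0.00012). It had also passed at 0.5 days, at 1.17, and it was the 1 gene of the 6 lists that passed in Adr hearts, at 0.5 days (1.01, adjusted p = 0.022). Txn1, thioredoxin itself, went from 60.8 ± 6.3 to 104 ± 13 FPKM (0.76, adjusted p = 0.0086), and Sod1 rose by 0.51 (adjusted p = 0.045). Sesn3, a sestrin, fell from 2.003 ± 0.29 to 0.865 ± 0.16 FPKM (-0.68, adjusted p = 0.0016). From 1 to 7 days Msrb1 and Txn1 fell by 1.54 and 0.97 on the log2 scale and Sesn3 rose by 0.62, in a comparison where 3 of the 23 genes were lower and 1 higher (1.89% of all genes passed and 1.14% were lower).

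Of 17 genes of heme and iron handling, 15 were tested. At 1 day in Arrest hearts 4 rose and 0 fell, with a median of 0.42. Over all genes, 7.11% passed in this comparison and 3.88% were higher. Fth1, the ferritin heavy chain that stores iron, went from 598 ± 79 to 864 ± 114 FPKM (0.53, limma adjusted p = 0.023). Hmox2, the constitutive heme oxygenase, rose by 0.50 at 1 day (adjusted p = 0.044) and by 0.56 at 0.5 days (adjusted p = 0.039). Cd163, the macrophage receptor for haemoglobin bound to haptoglobin, rose by 1.15 (adjusted p = 0.039), and it stands in the macrophage marker list as well. Of 13 genes of NADPH supply, 12 were tested and 2 rose at 1 day, where 7.11% of all genes passed and 3.88% were higher. They were Idh1, by 0.71 (adjusted p = 0.0077), and Pgls, by 0.62 (adjusted p = 0.0043). At 0.5 days 0 of the 12 passed (3.21% of all genes) and 4 reached an unadjusted p of 0.05 (18.2% of all genes). Idh1 encodes the cytosolic isocitrate dehydrogenase, which makes NADPH, and Pgls an enzyme of the oxidative pentose phosphate pathway.

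Of 30 genes of conjugation and detoxification, 27 were tested. At 1 day in Arrest hearts 0 rose and 1 fell, where 7.11% of all genes passed and 3.88% were higher. The gene that fell was Nqo2, a quinone reductase related to Nqo1, from 9.39 ± 1.1 FPKM in Naïve to 5.96 ± 0.93 FPKM (-0.58, SE 0.16, limma adjusted p = 0.020). Nqo1 and Nqo2 thus moved in opposite directions at 1 day. At 0.5 days Ugdh, which makes the donor for glucuronidation, rose by 0.77 (adjusted p = 0.036), and Ephx1, the microsomal epoxide hydrolase, fell by 0.62 (adjusted p = 0.024). Among the list genes named at 1 day, Msrb1, Sesn3, Mgst1, Txn1, Idh1, Pgls and Gsk3b kept their call whichever library was left out, and the other 10 lost it without Arrest replicate 3, among other fits (adjusted p at most 0.18). At 0.5 days Mgst1 lost its call only without Arrest replicate 1 or 2 (adjusted p at most 0.080). Maff, Slc3a2, Gpx4, Hmox2 and Ugdh lost theirs without Arrest replicate 1 or 2, and Ephx1 did without replicate 2, 3 or 4, in each case among other fits (adjusted p at most 0.21). Msrb1 in Adr hearts lost it without Adr replicate 3 or 4 or Naïve replicate 1 or 5 (adjusted p at most 0.11).

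**Figure D5:**
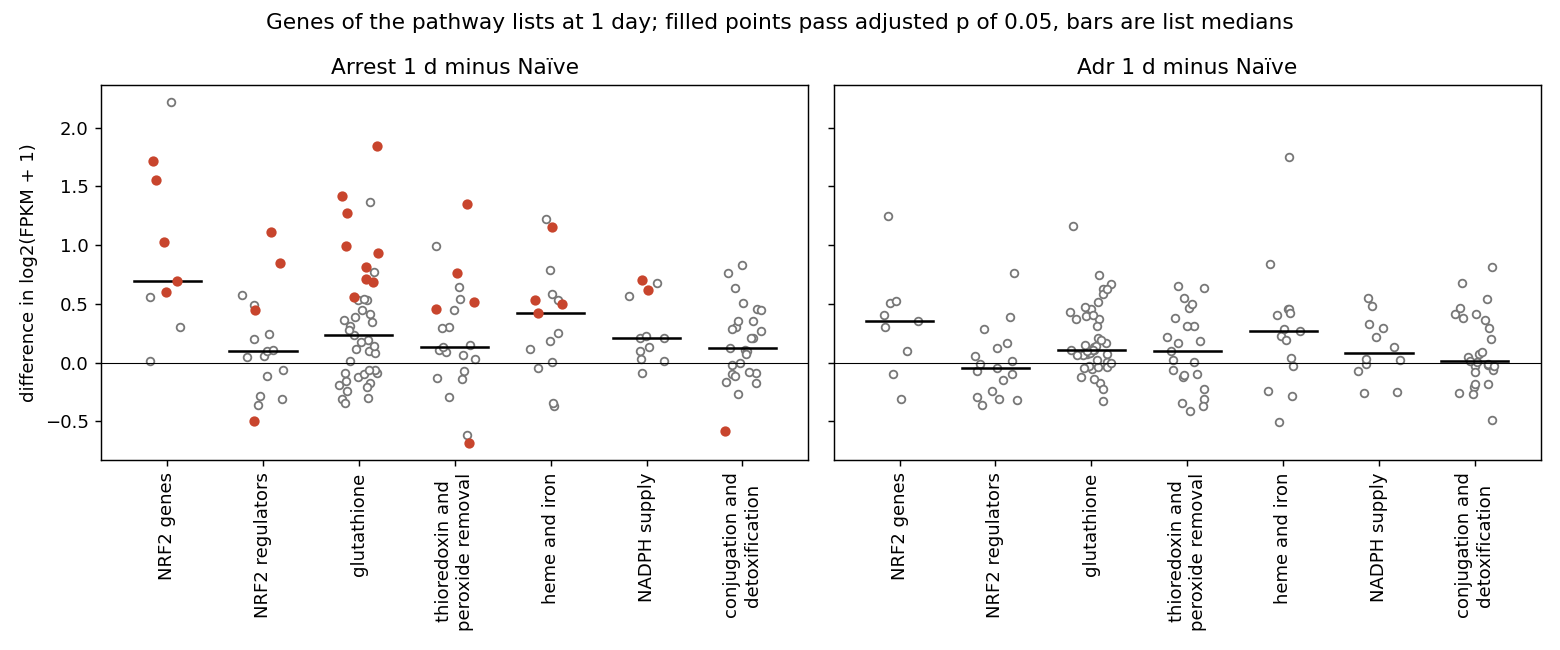
Difference from Naïve in log2(FPKM + 1) at 1 day for the NRF2 genes and the 6 lists, Arrest on the left and Adr on the right, with 1 point for each tested gene, filled where the adjusted p was at most 0.05, and a bar at the list median. The medians in Arrest run from 0.10 for the regulators to 0.69 for the NRF2 genes, and no point is filled in Adr.

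Across all 37 libraries, the genes most like the members that passed were sought among 11549 genes with a mean of at least 1 FPKM. For Gclm they were Sqstm1 (Pearson's r = 0.88), Idh1 (0.87) and Cebpd (0.86). For Prdx1 they were Txn1 (0.80), Ftl1 (0.74) and Vmp1 (0.73), and for Txnrd1 Vmp1 (0.83), Eif4a1 (0.80) and Txn1 (0.77). Nqo1 was most like Gsta4 (0.82), Perp (0.82) and Cnbp (0.81), and Srxn1 was most like Gadd45g (0.78), Pgf (0.76) and Dnttip2 (0.76). Leaving out the Adr library that stood apart gave r between 0.67 and 0.90 for these pairs. These correlations are descriptions over libraries that share groups and scaling.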

How the data were processed

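Left ventricular RNA of 37 mice was sequenced by or for the authors, who aligned reads with HISAT2 and deposited 1 table of FPKM values, with gene lengths, for 56748 genes. Its genome build, counting tool and strand are not given in the sources used here, and no member starts within 1 kb of its GRCm38 position (0 of 10), so coordinates are printed for the promoters only. In 100% of values FPKM gave whole fragments, within 0.01 of a fragment. No per-sample column was unused, and 0 pairs of libraries were identical. According to the study's methods, the authors left 1 Adr sample at 3 days out for poor quality. The labels do not identify that sample. The main fit used all 4 deposited Adr libraries at 3 days and may therefore include it. Counts without the Adr library that stood apart are given below, and whether that library is the one the authors left out is not known.

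FPKM values were divided by a median-ratio factor, 1.013 in every library, and log2(FPKM + 1) was fitted in 1 model of 9 groups with limma 3.58.1 under R 4.3.3 (moderated with a mean-variance trend) for genes that reached 0.5 FPKM in 4 or more libraries, in 13 comparisons, after the model had been tested on simulated data. All members were named, and from each list at most 3 genes higher and 3 lower per comparison by size. Marker lists were summed in FPKM. The members and lists were chosen with earlier results of these data known. Figures were drawn with matplotlib 3.10.9. Floors from fragments cover counting error only, while the 95% intervals come from limma and its estimate of the spread between libraries. Overlapping genes and near-identical copies are uncertain, since the counting is not described.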

Additional observations from a re-analysis of the deposited data

Results flagged for a closer look

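In 2 of 81 sets of libraries, a set being 1 gene in 1 group, a single library lay apart from the rest by Dixon's criterion on log2(FPKM + 1), and chance gives about 1 in 20. Both were of Prdx1. In Adr hearts at 3 days replicate 3 held 202 FPKM against 97.6 to 107 FPKM in the other 3, in the library that also had a macrophage marker sum of 1108 FPKM. In Adr hearts at 0.5 days replicate 4 held 104 FPKM against 123 to 126 FPKM. On FPKM itself 4 sets met the criterion, these and 2 of Hmox1, with 349 FPKM in Adr replicate 3 at 3 days against 10.05 to 34.97 FPKM, and 47.8 FPKM in Arrest replicate 2 at 0.5 days against 16.1 to 20.4 FPKM.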

How the results depend on the processing

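The counts of members past the threshold depended on the processing. For Arrest at 0.5 days against Naïve the count of 1 became 2 with scaling by counted fragments or a pseudocount of 0.1, 3 with a filter on a mean of at least 1 FPKM, 4 without the Adr library that stood apart, and 0 to 3 when 1 library of the groups was left out. For Arrest at 1 day the count of 5 became 3 under quantile normalization or scaling by counted fragments, 6 without that Adr library, and 2 to 6 on leaving out 1 library. For 7 against 1 day the count of 2 became 0 under quantile normalization or with no filter, 1 with the gene length trend removed, 5 with the mean filter, 6 without that Adr library, and 0 to 5 on leaving out 1 library. For Adr at 0.5 days the count of 0 became 1 without that Adr library and was 0 in each fit that left out 1 of its own libraries. With the number in the sample descriptions as a covariate the counts were 1, 0 and 0 for Arrest at 0.5 and 1 day and for 7 against 1 day, with log2 differences at 1 day of 1.67 for Srxn1 and 1.31 for Gclm and adjusted p-values of 0.12 and 0.24. That number ran from 116 to 127 in Naïve and from 70 to 95 in Arrest at 1 day, and what it stands for is not given. The Adr library that stood apart is in none of the groups compared here. Leaving it out acts through the spread that all 9 groups share in the model. The cause of the other moves was not tested.

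Same-numbered libraries of different groups shared only a number (mean correlation of their deviations -0.0081 over 144 pairs). With a replicate block the members' counts were 1, 5 and 2, and those of all genes fell from 531 to 280 at 0.5 days and from 1176 to 768 at 1 day. Calls over all genes ran from 237 to 910 for Arrest at 0.5 days and from 34 to 1703 at 1 day over the alternatives other than leaving out 1 library of these groups, and from 125 (without Arrest replicate 2) to 478 and from 487 (without Arrest replicate 3) to 1246 on leaving out 1. Limma-voom gave 1, 5 and 2 members.

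Nfe2l2 in Arrest at 1 day changed sign, at -0.11 under quantile normalization, -0.018 with scaling by counted fragments, -0.022 with the length trend removed, -0.051 with the description number, -0.011 with the replicate block and from -0.11 to 0.074 on leaving out 1 library. Gclc at 0.5 days ran from -0.015 to 0.49 and Bach1 at 1 day from -0.033 to 0.20 on leaving out 1 library. Over the alternatives other than leaving out 1 library, 948 of 1107 values of single genes kept direction and side of the threshold. Among these alternatives, the values as deposited differ from the main fit only by the common factor of 1.013. Their agreement was thus nearly fixed in advance and adds to this count. The genes that lost their call on leaving out 1 library include Nqo1, lost in 5 of 9 fits at 1 day, Txnrd1 in 4 and Prdx1 in 2, with Srxn1 and Gclm lost in 0.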
